A study of Drosophila melanogaster with 12 samples.

Results

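Proteasome subunit genes were taken as the genes measured by a probe set with 1 gene symbol that begins with Prosalpha, Prosbeta, Rpn or Rpt followed by a digit. The rule found 40 genes among 11982 named genes, each with 1 probe set, and used no measured difference. Of these, 26 carry the name of a standard subunit: 6 of the 20S alpha ring, 6 of the 20S beta ring, 4 ATPases of the 19S cap and 10 non-ATPase subunits of the cap. The other 14 carry an R or T after the number and are duplicated paralogs. A RefSeq gene table lists 48 symbols of this form, 32 standard and 16 paralogous. Prosalpha1, Prosalpha1R, Prosbeta1, Rpt1, Rpt6, Rpt6R, Rpn9 and Rpn10 had no single-gene probe set in the annotation and were not analysed here. Only 1 probe set with several symbols matched the rule, and it was left unnamed.

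The proteasome is the protease complex that degrades ubiquitin-tagged proteins in the cytosol and nucleus. Its barrel-shaped 20S core has outer alpha rings, which gate the entrance, and inner beta rings, which hold the proteolytic sites. The 19S cap binds the ubiquitin chain through its Rpn subunits, removes the chain and, with its ring of Rpt ATPases, unfolds the substrate and threads it into the core. Core and cap genes are commonly expressed together, and the roles given here for single subunits rest mainly on yeast and human proteasomes. Several Drosophila subunits have a duplicated copy that is known mainly from the testis, where it can replace the standard subunit during sperm formation. In flies the transcription factor cnc, with its partner maf-S, can activate subunit genes, and Keap1 holds cnc in check.

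The flies were females of genotype w1118, a white-eyed laboratory strain without a transgene, reared on cornmeal until eclosion. They then lived for 10 days at 25 °C on holidic food, a synthetic diet of defined composition. The food was unmodified, or it was glucose-enriched (100 g/L), and the labels do not say whether that is the added or the final amount. Each sample pooled the RNA of 5 flies, or of 10 midguts taken by dissection. Both materials on both diets make 4 groups of 3 samples, on 12 arrays. A whole fly includes its midgut, so comparisons between these materials are of an organ with an animal that contains it. Whether the samples of a group were cultured separately is not stated, and p-values therefore reflect the spread among these samples alone, which may be technical.

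Values are log2 probe set signals, and a difference of 1 is a 2-fold change. The median signal of an array was 4.04 to 4.15 for whole fly RNA and 3.43 to 3.47 for midgut RNA, and arrays of the same group correlated at 0.9887 to 0.9939. All 15 measured midgut markers were called higher in the midgut on the unmodified diet and 13 of 15 on glucose, where LysX differed by -0.18 and LysP by 0.06. Of all probe sets, 14.9% and 11.8% were called higher. The first midgut array of the glucose group carried some transcripts of egg formation. Its osk signal was 9.55, against 3.42 and 4.97 on the other arrays of that group, and its orb signal was 6.32, against 2.02 and 2.57. The summed linear level of 11 germline genes was 1556 on that array, against 406 and 396. For 13 ovary and egg genes, however, it was 10455, against 13293 and 10846. In the unmodified midgut group, the first array also stood above the others for osk, at 5.64 against 1.80 and 2.70. It did not for the eggshell gene Vm26Aa, at 4.40 against 4.53 and 4.99. Results in the midgut are therefore also given without both arrays numbered 1.

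Every standard subunit gave a signal well into the upper range of the arrays. All 26 probe sets lay above the array median on all 12 arrays. Group means ranged from 8.64 to 10.93 in whole flies on the unmodified diet and from 7.54 to 10.00 in midguts on that diet. On the glucose diet they ranged from 8.41 to 10.87 in whole flies and from 7.64 to 10.01 in midguts. These ranges describe the probe sets and give no order of the genes, because a probe set's signal also depends on its own sequence. The median standard deviation of the subunits within a group was 0.088 to 0.105, beside 0.140 to 0.158 over all named genes. All named genes include many dimmer probe sets, and genes of like signal were not compared.

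The duplicated paralogs gave a different picture, with signals near the floor of the array. All 14 lay below the array median on all 6 whole fly arrays, with group means from 2.13 to 3.51. In the midgut 13 of 14 lay below the array median on each of the 6 arrays. The exception was Prosbeta2R1, a copy of the beta ring subunit Prosbeta2, with a mean of 4.17 ± 0.16 (SD, n = 3) on the unmodified diet. The animals were female, and a list of 15 testis markers had a median level of 2.16 to 2.41 over the whole fly arrays and 2.13 to 2.39 over the midgut arrays. Of that list bol stood apart, with means of 6.29 in whole flies and 5.09 in midguts on the unmodified diet. The summed linear level of the list, bol included, was 147 to 175 in whole flies and 106 to 117 in midguts.

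**Figure D1:**
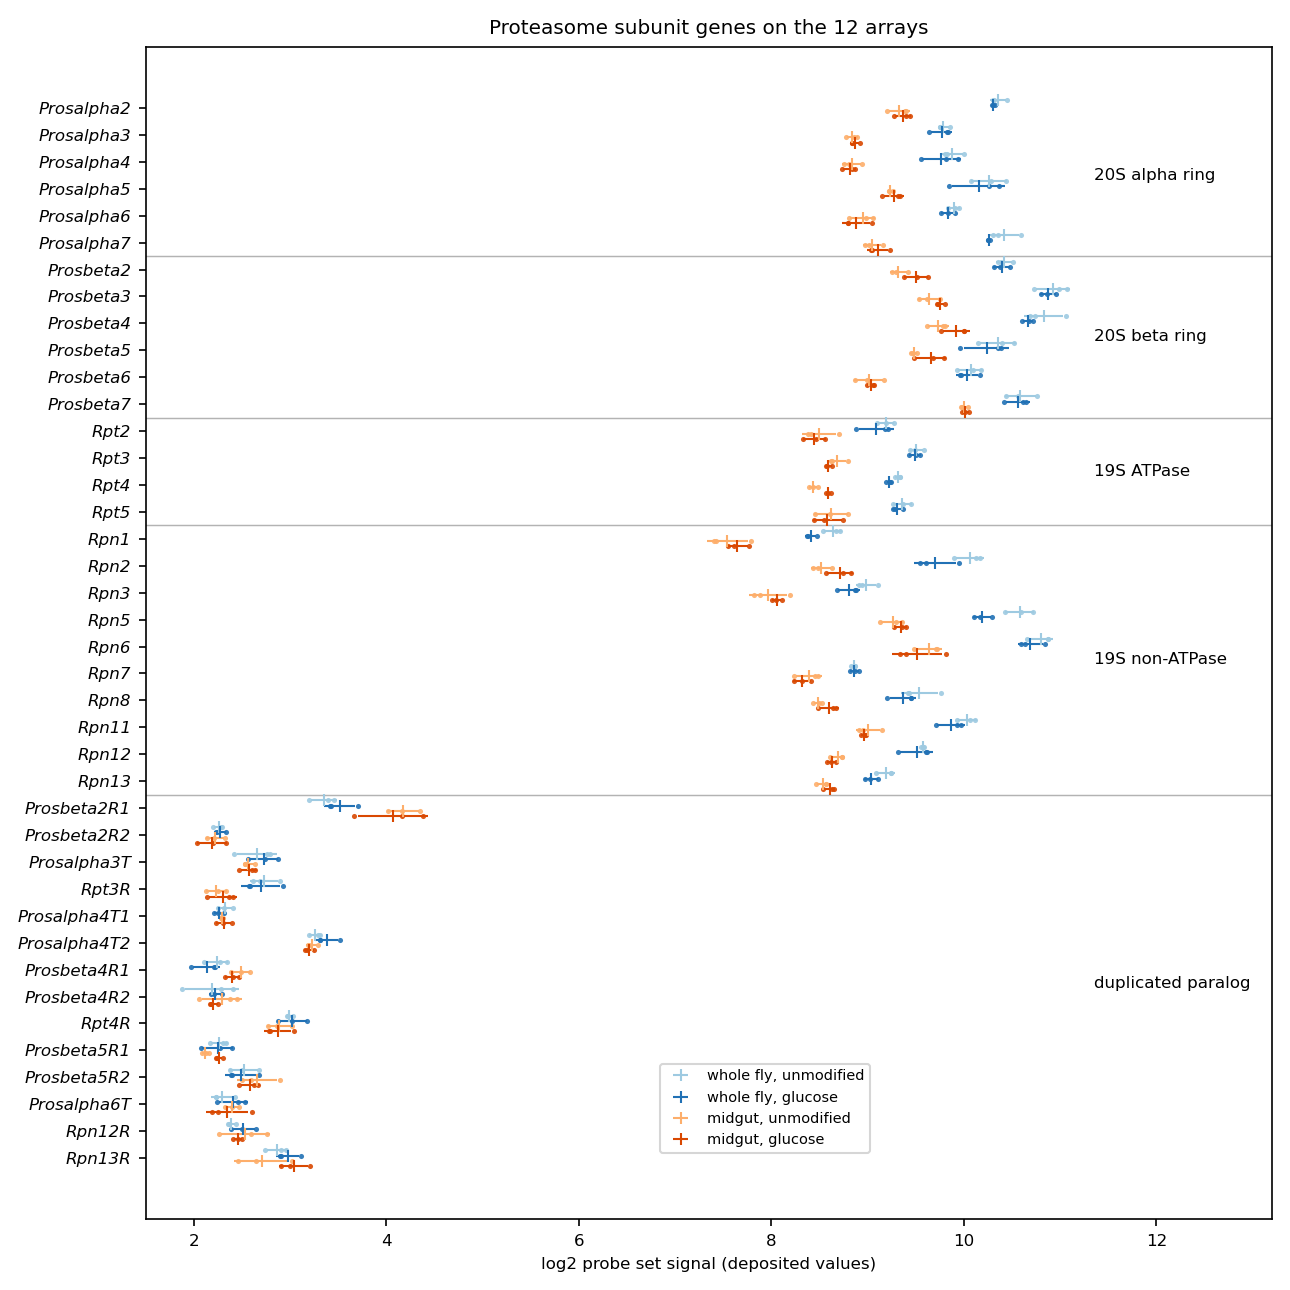
Log2 probe set signal (horizontal axis) of the 40 proteasome subunit genes by role, with 1 dot per array, a tick at each mean of 3 arrays and a bar of 1 SD. All 26 standard subunits lie far above the 14 paralogs, and on this deposited scale the midgut values (orange) of each standard subunit lie left of its whole fly values (blue).

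The first comparison set the midgut against the whole fly on the unmodified diet. All 26 standard subunits were lower in the midgut on the deposited scale. Their median difference was -1.03 on the log2 scale, beside -0.33 over all named genes. A limma fit across 18769 probe sets called each of the 26 lower at an adjusted p under 0.05, where 40.6% of all probe sets were called lower. Adjusted p-values of the 26 ran from 1.26e-07 to 0.000946, and 15 of them were at least 2-fold lower. For all 26 the 3 midgut arrays lay wholly below the 3 whole fly arrays, as did 44.1% of all probe sets. With each array centred on its median, 20 of the 26 were still called lower and Rpn7 and Prosbeta7 turned positive, as given in full after the glucose diet.

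In the 20S core, both rings were lower by a similar amount. The 6 alpha subunits had a median difference of -1.03, from -0.95 for Prosalpha3 to -1.37 for Prosalpha7. Prosalpha7, an alpha ring subunit, read 10.36, 10.59 and 10.31 in whole flies and 9.15, 9.01 and 8.97 in midguts. The midgut arrays were all more than 1 unit below the lowest whole fly array, and the difference of -1.37 (SE 0.10) had an adjusted p of 1.26e-07. The 6 beta subunits had a median of -1.08. Among them Prosbeta3, a beta ring subunit without a catalytic site, read 10.73, 11.07 and 10.98 in whole flies and 9.62, 9.54 and 9.75 in midguts. Its 2 sets of arrays did not overlap, and the difference was -1.29 (SE 0.11, adjusted p = 2.8e-07). The catalytic subunits Prosbeta2, which cleaves after basic residues, and Prosbeta5, which cleaves after hydrophobic ones, differed by -1.10 (SE 0.10) and -0.88 (SE 0.14). Prosbeta7 had the smallest difference of the ring, at -0.59 (SE 0.10, adjusted p = 0.000276).

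In the 19S cap, the ATPases differed less than the other groups and the non-ATPase subunits spanned the widest range. The 4 measured ATPases had a median of -0.78, from -0.69 for Rpt2 to -0.88 for Rpt4. The 10 non-ATPase subunits had a median of -1.04, from -0.46 for Rpn7 to -1.55 for Rpn2. Rpn2, a large scaffold subunit at the base of the cap, read 10.12, 10.16 and 9.90 in whole flies and 8.43, 8.48 and 8.63 in midguts. This was the largest difference of any standard subunit, 2.92-fold lower (SE of the log2 value 0.13, adjusted p = 2.83e-07). Rpn5, a structural subunit of the cap's lid, read 10.42, 10.72 and 10.59 in whole flies and 9.29, 9.13 and 9.36 in midguts. The gap was again wider than either group's range, and the difference was -1.32 (SE 0.10, adjusted p = 2.19e-07). Rpn6, the lid subunit that touches the alpha ring, and Rpn1, the base subunit that docks shuttle factors, differed by -1.16 (SE 0.14) and -1.10 (SE 0.12). Rpn11, the deubiquitinase that cuts the chain off, differed by -1.03 (SE 0.10). Rpn13, a ubiquitin receptor held by Rpn2, differed by -0.65 (SE 0.09). Whether the role groups differ from each other was not tested.

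On the glucose diet the same comparison called the same 26 subunits lower in the midgut on the deposited scale, and 10 of them after centring. Of all probe sets, 41.2% were called lower as deposited. The median difference was -0.88, beside -0.35 over all named genes. All 26 again had non-overlapping arrays, as did 44.9% of all probe sets in that direction, and 3 were at least 2-fold lower. Medians were -0.94 for the alpha ring, -0.82 for the beta ring, -0.68 for the ATPases and -0.80 for the non-ATPase subunits. Rpn6 had the largest difference, at -1.18 (SE 0.14, adjusted p = 8.34e-06), and Rpn13 the smallest, at -0.43 (SE 0.09, adjusted p = 0.00115). Within the other groups the ends were Prosalpha7 and Prosalpha5, Prosbeta3 and Prosbeta7, and Rpt3 and Rpt4.

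The members with the smallest p-values on glucose showed the same separation of arrays. Prosalpha7 read 10.25, 10.27 and 10.25 in whole flies and 9.23, 9.04 and 9.05 in midguts, a difference of -1.15 (SE 0.10, adjusted p = 8.47e-07). Prosbeta3 read 10.80, 10.96 and 10.86 in whole flies and 9.80, 9.72 and 9.73 in midguts, a difference of -1.12 (SE 0.11, adjusted p = 1.41e-06). In both, the highest midgut array lay below the lowest whole fly array by more than the spread of either group. Rpt3, an ATPase of the cap, read 9.55, 9.43 and 9.50 in whole flies and 8.56, 8.58 and 8.63 in midguts. Its difference was -0.90 (SE 0.09, adjusted p = 1.89e-06). Prosalpha2 read 10.29, 10.32 and 10.30 in whole flies and 9.44, 9.28 and 9.39 in midguts. Its difference was -0.93 (SE 0.09, adjusted p = 2.01e-06), and again no array of the groups overlapped. By size of difference, Prosbeta6, Rpn2 and Prosalpha6 came after Rpn6, Prosalpha7 and Prosbeta3, at -0.996 (SE 0.11), -0.99 (SE 0.13) and -0.95 (SE 0.10).

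The order of the subunits was broadly shared between the diets, which used separate arrays. Across the 26 genes, which are not independent replicates, the difference on the unmodified diet correlated with that on glucose with a Pearson's r of 0.745 and a Spearman's rho of 0.696. For 21 of 26 subunits the difference was nearer 0 on the glucose diet. Without both midgut arrays numbered 1, all 26 were still called lower on each diet, with medians of -1.02 and -0.87.

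**Figure D2:**
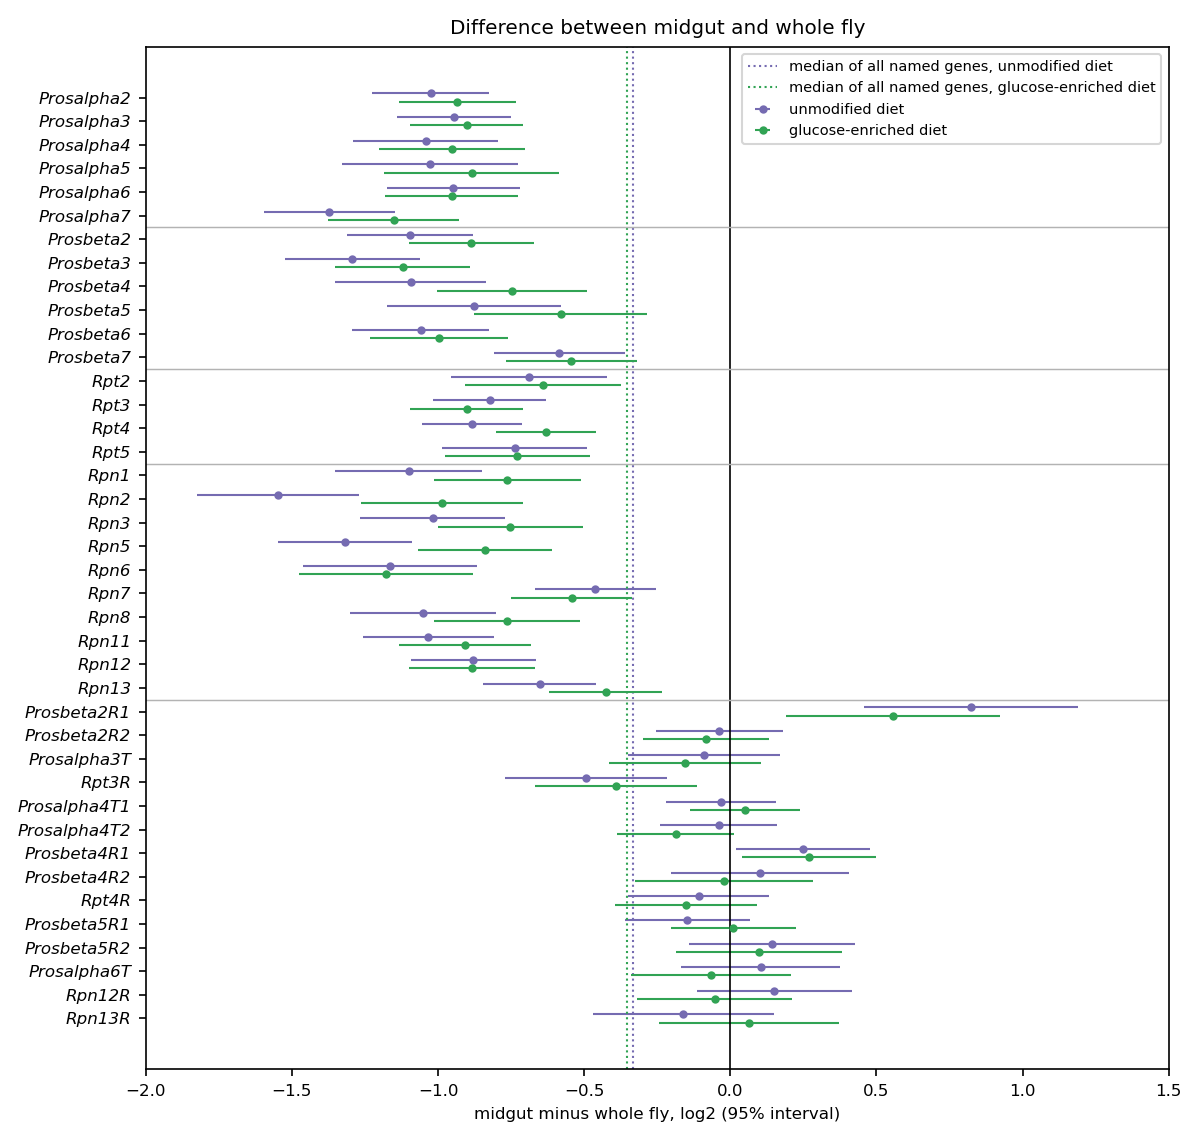
Midgut minus whole fly difference in log2 signal (horizontal axis), with 95% intervals from limma, for the 40 genes on the unmodified (purple) and glucose-enriched (green) diets. All 26 standard subunits lie left of 0 on the deposited scale, and dotted lines mark the median of all named genes, -0.33 and -0.35.

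The size of these differences depends on how the arrays are put on a common scale. Centring every array on its median moved the median of all named genes from -0.33 to 0.28 on the unmodified diet and from -0.35 to 0.32 on glucose. On the centred scale 20 standard subunits were called lower and 0 higher on the unmodified diet, where 26.4% of all probe sets were called lower, and their median was -0.41. On glucose 10 were called lower, where 22.8% of all probe sets were, with a median of -0.21. There 1 was called higher, Rpn13 at 0.25, where 60.3% of all probe sets were. Rpn7 and Prosbeta7 turned positive on the centred unmodified scale, at 0.15 and 0.03, though neither was called. On the centred glucose scale 6 of 26 were positive, with Rpn7 and Prosbeta7 at 0.13 each, Prosbeta5 at 0.10, and Rpt4 and Rpt2 at 0.04 each beside Rpn13, and of these only Rpn13 was called. With quantile normalization 25 and 22 were called lower, where 26.0% and 24.0% of all probe sets were, with medians of -0.80 and -0.64. The share of all calls that were lower in the midgut fell from 73.1% as deposited to 45.8% with quantile normalization and 30.8% with centring on the unmodified diet. On glucose these shares were 77.7%, 45.3% and 27.5%. Centring by its construction leaves the distance of the subunits from the other genes as it was. Their median lay 0.69 below that of all named genes on the unmodified diet and 0.53 below on glucose, and with quantile normalization 0.84 and 0.68 below.

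**Figure D3:**
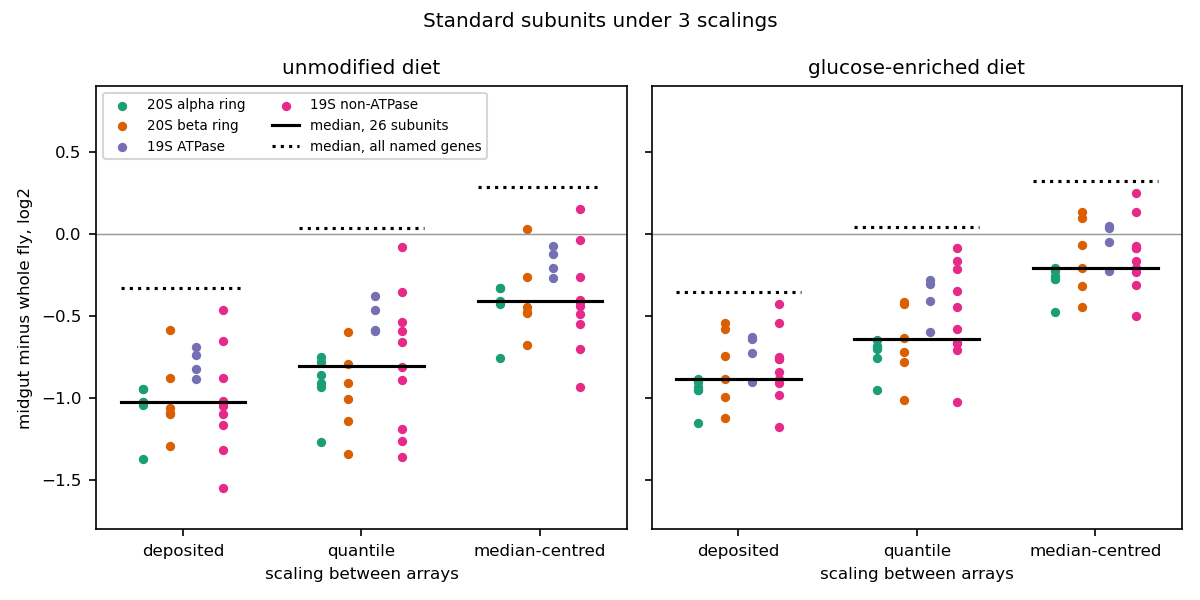
Midgut minus whole fly difference in log2 signal (vertical axis) of the 26 standard subunits, 1 dot per gene coloured by role, under 3 scalings of the arrays and for each diet. The median of the subunits (solid line) stays below that of all named genes (dotted line) under each scaling, while the position of both against 0 shifts.

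Ovary, germline, muscle and eye transcripts moved with the same contrast. All 11 measured germline genes were lower in the midgut on each diet, with median differences of -5.24 and -4.87. Their summed linear level was 13516 to 14768 in whole flies and 335 to 575 in midguts on the unmodified diet. On glucose it was 8932 to 10891 and 396 to 1556. All 13 ovary and egg genes were called lower on the unmodified diet and 11 of 13 on glucose, where 40.6% and 41.2% of all probe sets were. All 6 photoreceptor genes were called lower on each diet. All 10 muscle genes were lower on each diet, with 8 called on the unmodified diet and 10 on glucose. The difference between 3' and 5' control probe sets also moved with the contrast for Act5C, at 3.68 to 4.93 in whole flies and 2.46 to 3.45 in midguts, while for Gapdh it was 4.91 to 5.58 and 5.03 to 5.64. The part of these transcripts and signs in the subunits' differences was not tested. In these bulk samples, fewer cells of a kind and less RNA per cell cannot be told apart.

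Genes that work with the proteasome were also lower in the midgut on the deposited scale. Of 9 measured assembly factors, activators and associated proteins, all 9 were called lower on each diet, with medians of -1.20 and -1.01. Of all probe sets, 40.6% and 41.2% were called lower on that scale. Uch-L5, the deubiquitinase that docks on Rpn13, differed by -2.30 (SE 0.12) on the unmodified diet. Rad23, which shuttles ubiquitinated proteins to the cap, differed by -1.64 (SE 0.12). REG, the fly activator that can cap the core in place of the 19S particle, differed by -1.44 (SE 0.12). All 7 measured genes of chain extraction and delivery, among which Rad23 and rngo are also in the first list, were called lower on both diets, with medians of -1.12 and -1.01. Npl4, a cofactor of the unfoldase TER94, had the largest difference of that list, at -3.14 (SE 0.11). With centring 5 of 9 and 5 of 7 were called lower on the unmodified diet, and 5 of 9 and 3 of 7 on glucose, with 0 higher, where 26.4% and 22.8% of all probe sets were called lower. With quantile normalization 6 of 9 and 4 of 7 were called lower on the unmodified diet, with 1 of the 9 called higher, and 7 of 9 and 5 of 7 on glucose, where 26.0% and 24.0% of all probe sets were called lower.

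Lists further from the complex were mixed. Of 9 ubiquitin and conjugation genes, 6 were called lower on each diet, where 40.6% and 41.2% of all probe sets were. Their medians of -0.35 and -0.38 were close to the median of all named genes, and centring turned them to 0.26 and 0.30. Of all probe sets, centring called 26.4% and 22.8% lower and 59.1% and 60.3% higher. Of the 9 genes it called 2 lower and 5 higher on the unmodified diet, and 3 lower and 4 higher on glucose. With quantile normalization the medians stayed negative, at -0.16 and -0.22. It called 4 of the 9 lower on each diet, where 26.0% and 24.0% of all probe sets were, and 1 and 0 higher. Of the 9 genes vih and Ubc2, both ubiquitin-conjugating enzymes, differed by -2.38 (SE 0.13) and -1.75 (SE 0.15) on the unmodified diet as deposited. The COP9 signalosome and the translation factor eIF3, whose subunits are related to those of the lid, had 20 of 21 genes called lower on the unmodified diet and all 21 on glucose. Their medians were -0.73 and -0.77, and -0.12 and -0.09 with centring, where 7 and 6 of 21 were called lower and 1 and 2 higher. Those centred counts lie near the shares of all probe sets called lower, 26.4% and 22.8%. With quantile normalization 14 and 15 of the 21 were called lower, where 26.0% and 24.0% of all probe sets were. It called 2 of the 21 higher on each diet, and the medians were -0.47 and -0.46. Of 15 cytosolic chaperones 12 were called lower on each diet, with medians of -1.55 and -1.26. Called higher were 2 on the unmodified diet, stv at 0.81 and Hsp68 at 0.80, and 1 on glucose, Hsp68 at 0.89. With centring 11 were called lower and 2 higher on each diet, where 26.4% and 22.8% of all probe sets were called lower and 59.1% and 60.3% higher. The small heat shock genes Hsp26 and Hsp27 differed by -4.48 (SE 0.30) and -4.33 (SE 0.32) on the unmodified diet, and CCT6, of the ring-shaped chaperonin, by -1.67 (SE 0.13).

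The genes listed as regulators of subunit genes did not move together. On the unmodified diet 5 of 9 were called lower and 4 higher in the midgut, where 40.6% of all probe sets were called lower and 14.9% higher. Lower were Dref, a factor for genes of cell growth and replication, at -2.23 (SE 0.11), and Hsf, the heat shock factor, at -2.54 (SE 0.13). Higher were Keap1, at 0.86 (SE 0.09, adjusted p = 2.63e-06), maf-S, at 0.40 (SE 0.15, adjusted p = 0.0423), and cnc, at 0.25 (SE 0.10, adjusted p = 0.0464). The fourth was Hr51, a nuclear receptor whose means of 2.70 in whole flies and 3.04 in midguts lay near the floor. Whether it regulates subunit genes was not tested. On glucose 5 were called lower and only Keap1 higher, at 0.54 (SE 0.09), where 41.2% of all probe sets were called lower and 11.8% higher. There cnc differed by 0.11 (adjusted p = 0.395) and maf-S by 0.09 (adjusted p = 0.667) as deposited. With centring both were called higher on glucose, at 0.78 and 0.76. With quantile normalization neither was called there, at 0.23 and 0.29. Over the list, centring called 2 lower and 4 higher on each diet. Of all probe sets it called 26.4% and 22.8% lower and 59.1% and 60.3% higher. Dref and Hsf were also called lower, and Keap1 higher, with centring and with quantile normalization on both diets, while crc, the fly ATF4, turned from -0.40 to 0.21 with centring on the unmodified diet. Whether the midgut difference itself differed between the diets was also tested with limma. No gene of the list was called, with a smallest adjusted p of 0.116, for Hsf.

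Among the paralogs, Prosbeta2R1 was the one that was clearly higher in the midgut. It read 3.20, 3.40 and 3.46 in whole flies and 4.16, 4.02 and 4.34 in midguts on the unmodified diet, with no overlap. The difference was 0.82 (SE 0.17, adjusted p = 0.000915), opposite in sign to that of Prosbeta2, and it was 1.44 with centring and 1.52 with quantile normalization. On glucose it was 0.56 (SE 0.17, adjusted p = 0.0134), with 3.70, 3.43 and 3.41 in whole flies and 3.66, 4.38 and 4.16 in midguts, where 1 midgut array fell within the whole fly range. Prosbeta4R1 was 0.25 higher on the unmodified diet (SE 0.11, adjusted p = 0.0637) and 0.27 higher on glucose (SE 0.11, adjusted p = 0.0487), a call that a fit over the 6 glucose arrays did not make (adjusted p = 0.0856). Rpt3R was lower as deposited, with -0.50 (SE 0.13, adjusted p = 0.00477) and -0.39 (SE 0.13, adjusted p = 0.0197), and turned to 0.12 and 0.28 with centring, not called in either.

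The other 11 paralogs were not called on either diet on the deposited scale. They are Prosalpha3T, Prosalpha4T1, Prosalpha4T2, Prosalpha6T, Prosbeta2R2, Prosbeta4R2, Prosbeta5R1, Prosbeta5R2, Rpn12R, Rpn13R and Rpt4R. Their differences lay between -0.16 and 0.15 on the unmodified diet and between -0.19 and 0.10 on glucose. With median centring 13 of the 14 paralogs were called higher in the midgut on each diet, where 59.1% and 60.3% of all probe sets were, the exception being Rpt3R. On each diet 8 of the 14 were negative as deposited, and these turned positive with centring. Prosbeta2R1 and Prosbeta4R1 were positive under each of the 3 scalings on both diets.

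The second comparison asked whether the glucose diet changed the subunits in whole flies, and no member passed the test. Of all probe sets, 3.11% were called. Of the 40 members 3 had an unadjusted p under 0.05, where 21.4% of all probe sets had one. All 3 are non-ATPase subunits of the cap, and each was lower on glucose. Of the 26 standard subunits 25 had a negative difference, with a median of -0.10 beside -0.01 over all named genes. The subunits share arrays, so this count is a description of these 6 arrays. Leaving out the second unmodified array, on which 21 of 26 standard subunits lay above their group mean, brought the median to -0.06. The 95% intervals of the 26 lay between -0.68 and 0.27.

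Rpn5 came nearest to the threshold. It read 10.42, 10.72 and 10.59 on the unmodified diet and 10.10, 10.16 and 10.29 on glucose, without overlap. The means of 10.58 ± 0.15 and 10.18 ± 0.09 (SD, n = 3 each) differed by -0.39 (SE 0.11, 95% interval -0.66 to -0.13). The adjusted limma p was 0.0966. Fitted over all 12 arrays, which adds the midgut groups to the estimate of spread, the same difference had an adjusted p of 0.0457 and was called, where 6.57% of all probe sets were. Rpn2 read 10.12, 10.16 and 9.90 on the unmodified diet and 9.54, 9.94 and 9.60 on glucose, so that 1 glucose array lay within the unmodified range. Its difference was -0.36 (SE 0.14), with an adjusted p = 0.178 from limma. Rpn1 read 8.53, 8.67 and 8.71 on the unmodified diet and 8.37, 8.48 and 8.38 on glucose, narrowly without overlap. The difference was -0.23 (SE 0.10), with an adjusted p = 0.229 from limma.

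The remaining subunits of the whole fly lay closer to 0. Rpn3, a lid subunit, read 8.91, 8.94 and 9.11 on the unmodified diet and 8.86, 8.68 and 8.88 on glucose, a difference of -0.18 (SE 0.11, adjusted p = 0.428). Medians were -0.17 for the non-ATPase subunits, -0.08 for the alpha ring, -0.05 for the beta ring and -0.07 for the ATPases. Rpn7 was the one positive subunit, at 0.01 (SE 0.09). Within the alpha ring values ran from -0.16 for Prosalpha7 to -0.02 for Prosalpha3, within the beta ring from -0.16 for Prosbeta4 to -0.03 for Prosbeta7, and among the ATPases from -0.10 for Rpt2 to -0.01 for Rpt3. In 5 of the 40 genes, namely Rpn1, Rpn3, Rpn5, Rpt4 and Prosalpha7, the groups did not overlap, where 25.4% of all probe sets did not. The 14 paralogs had a median of 0.03, between -0.11 for Prosbeta4R1 and 0.16 for Prosbeta2R1, with no p under 0.05 before adjustment.

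Marker lists of other tissues differed between the same whole fly groups. Of all probe sets, 3.11% were called in either direction. On glucose 4 of 11 germline genes were called lower, with a list median of -0.56. Of 13 ovary and egg genes 1 was called lower, Cp15 at -4.24, and the list median was -1.47. In that list 9 were negative and 4 positive, up to 2.14 for Cp36. Photoreceptor genes were called higher in 5 of 6, with a median of 1.18, and muscle genes in 1 of 10, with a median of 0.50. Their part in the negative subunit differences was not tested. Of the related lists 0 genes were called by limma. The smallest adjusted p of each was 0.142 for Rad23 (-0.35), 0.0577 for Hsf (-0.66), 0.0926 for vih (-0.49), 0.0557 for Npl4 (0.59), 0.0507 for the chaperone cofactor DnaJ-1 (-0.48) and 0.12 for eIF3m (0.35).

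The third comparison asked the same of the midgut, and again no member was called. Only 0.00533% of all probe sets were, and 0 of the 40 members had an unadjusted limma p under 0.05, where 6.20% of all probe sets did. The standard subunits had a median of 0.04 beside 0.01 over all named genes, with 17 of 26 positive and 95% intervals between -0.46 and 0.46. Those intervals leave room for a change of that size in either direction. Without both arrays numbered 1 the median was 0.03. Without the second unmodified array, on which only 2 of 26 standard subunits lay above their group mean, it was 0.01.

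The beta ring stood highest among the role groups of the midgut. All 6 of its members were positive, with a median of 0.15, from 0.02 for Prosbeta7 to 0.18 for Prosbeta2. Prosbeta2 read 9.42, 9.25 and 9.29 on the unmodified diet and 9.63, 9.51 and 9.38 on glucose, with overlap (SE 0.11, adjusted p = 0.802). Prosbeta4 and the catalytic Prosbeta5 gave 0.18 each. Medians were 0.03 for the alpha ring, -0.05 for the ATPases and 0.08 for the non-ATPase subunits. The alpha ring ran from -0.07 for Prosalpha6 to 0.06 for Prosalpha7.

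In the cap the ends were Rpn2 and Rpn6. Rpn2 read 8.43, 8.48 and 8.63 on the unmodified diet and 8.74, 8.83 and 8.56 on glucose, a difference of 0.20 (SE 0.11, adjusted p = 0.8) with 1 glucose array inside the unmodified range. Rpn6 differed by -0.12 (SE 0.15). Rpt4 read 8.43, 8.39 and 8.48 on the unmodified diet and 8.57, 8.61 and 8.59 on glucose. It was the one standard subunit without overlap, where 11.7% of all probe sets had none, and it differed by 0.16 (SE 0.09, adjusted p = 0.8). The lowest ATPase was Rpt3, at -0.09 (SE 0.10).

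The member with the smallest p in the midgut was a dim paralog. Rpn13R read 2.64, 3.02 and 2.45 on the unmodified diet and 3.20, 3.003 and 2.91 on glucose, a difference of 0.33 (SE 0.16, adjusted p = 0.799) with overlapping groups. The 14 paralogs had a median of -0.03. Prosbeta2R1 had the lowest value, at -0.10 (SE 0.19), and its first glucose array, at 3.66, lay below the other 2. That is the array with transcripts of egg formation, and the part of those transcripts in this value was not tested. Of the related lists 0 genes were called by limma in the midgut, with a smallest adjusted p of 0.784 for eIF3d1 (0.25).

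**Figure D4:**
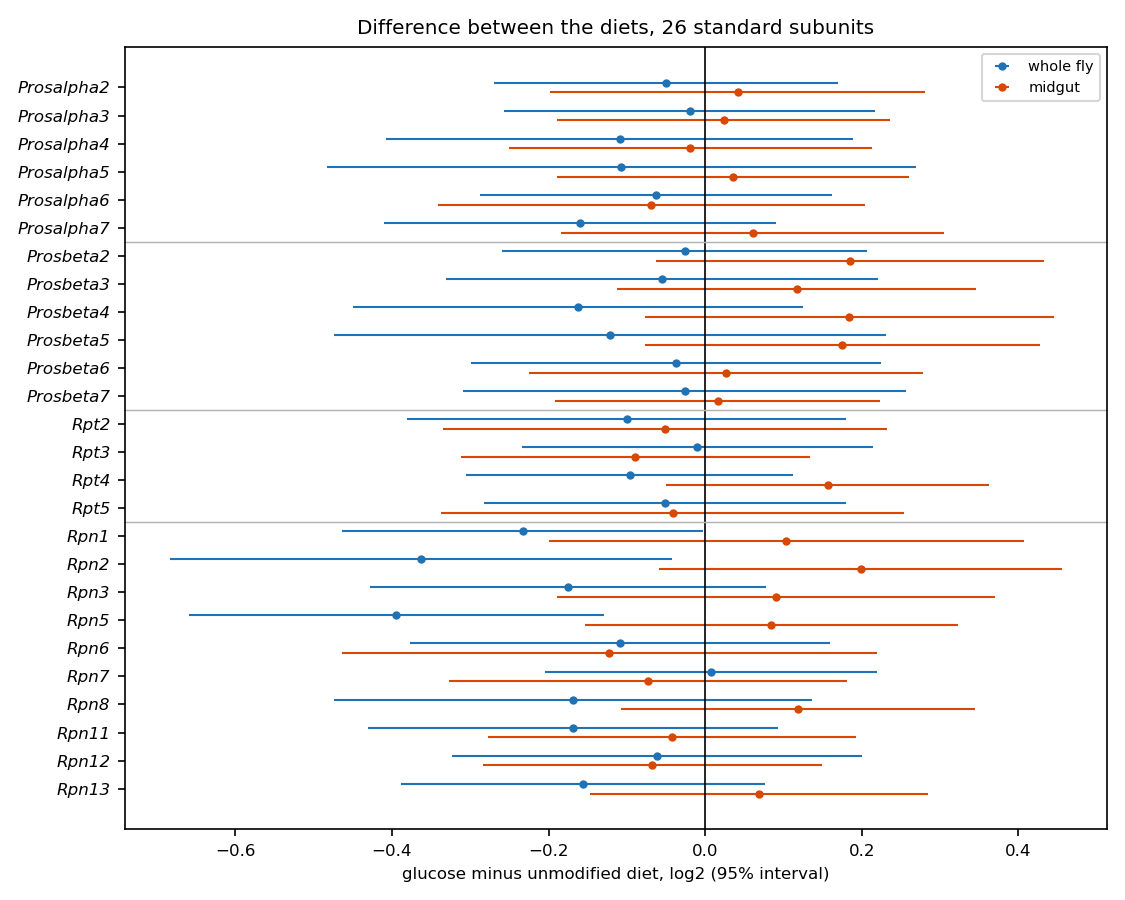
Glucose minus unmodified difference in log2 signal (horizontal axis), with 95% intervals from limma, for the 26 standard subunits in whole flies (blue) and midguts (orange). In whole flies 25 points lie left of 0, in midguts 17 lie right of it, and no difference passed the adjusted threshold.

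The last comparison tested whether the diet difference itself differed between midgut and whole fly. No member was called, and 0.0426% of all probe sets were. Unadjusted limma p-values under 0.05 were found for 3 members, where 15.1% of all probe sets had one. These were Rpn5, with a difference of differences of 0.48 (SE 0.15, adjusted p = 0.166), Rpn2, with 0.56 (SE 0.18, adjusted p = 0.176), and Rpt4, with 0.25 (SE 0.11, adjusted p = 0.31). The median over the standard subunits was 0.13, beside 0.01 over all named genes, and 21 of 26 were positive. Without the second unmodified whole fly array it was 0.07.

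By role the medians of this contrast were 0.09 for the alpha ring, 0.19 for the beta ring, 0.03 for the ATPases and 0.25 for the non-ATPase subunits. The highest and lowest members were Prosalpha7 (0.22) and Prosalpha6 (-0.01), Prosbeta4 (0.35) and Prosbeta7 (0.04), Rpt4 and Rpt3 (-0.08), and Rpn2 and Rpn7 (-0.08). Across the 26 genes, the whole fly and midgut diet differences, which come from separate arrays, had a Pearson's r of -0.442 and a Spearman's rho of -0.460, and 18 of 26 had opposite signs. The genes share their arrays, so this is a description and not a test. The paralogs had a median of -0.05.

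Single arrays shifted the standard subunits together by about as much as the diets did. On the second unmodified whole fly array the median deviation of the 26 from their group means was 0.08, and on the second and the third unmodified midgut arrays it was -0.08 and 0.07. On that whole fly array 21 of 26 lay above the group mean, and on those midgut arrays 2 and 20 did. Over all named genes the shares of these arrays above the mean were 56.5%, 49.9% and 49.0%. The other 9 arrays had median deviations between -0.03 and 0.04. The same whole fly array had the highest difference between 3' and 5' control probe sets of its group, a sign of RNA quality. For Gapdh this was 5.42 against 5.05 and 4.91, and for Act5C 4.93 against 4.33 and 3.78. Each other group also had 1 array highest for both controls. Median deviations of the 26 there were -0.08 on the second unmodified midgut array, -0.02 on the second glucose whole fly array and 0.02 on the first glucose midgut array. The part of RNA quality in the shifts was not tested. For the whole fly diet difference, with a median of -0.10, these shifts are of similar size. The tissue differences on the deposited scale, with medians of -1.03 and -0.88, were several times larger than these shifts. With centring those medians were -0.41 and -0.21.

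**Figure D5:**
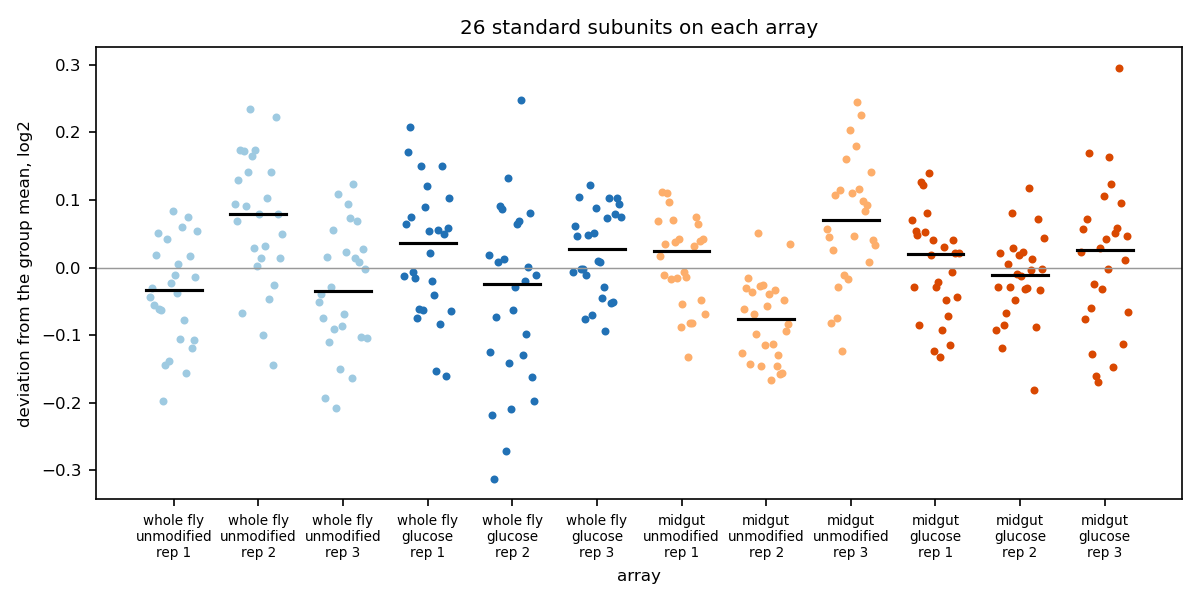
Deviation of each of the 26 standard subunits from its group mean in log2 signal (vertical axis) on the 12 arrays, with 1 dot per gene and a bar at the median. The dots shift together on the second unmodified whole fly array and on the second and the third unmodified midgut arrays.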

How the data were processed

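The authors deposited 1 table of log2 probe set signals for the 12 arrays. Per the submitters' processing notes they used Affymetrix Expression Console. Neither the summarisation algorithm nor any joint normalization of whole fly and midgut arrays is stated. A log2 scale was inferred from the range of 1.44 to 14.1. After 183 control probe sets were left out, 18769 were tested, 13647 of them with 1 gene symbol in the platform annotation, 402 with several and 4720 with none listed. All 40 members matched a RefSeq gene table by gene ID, which was used for names only.

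Differences were fitted in R 4.3.3 with limma 3.58.1 (lmFit, eBayes) without covariates, two-sided, with Benjamini-Hochberg adjustment over all tested probe sets. Diet differences used the 6 arrays of a tissue and the other contrasts all 12. The fits were also run on simulated data with independent noise. Those data held no shared shift of an array and no offset between tissues, so they cannot test for either. For 1 gene, an exact permutation test in groups of 3 has a smallest p of 0.1. The number of arrays limits the precision.

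Members, roles and related lists were chosen with earlier results of these data known. Named were up to 6 called members per direction, the highest and lowest per role, the nearest to the threshold, all paralogs and, per related list, up to 3 called genes with the smallest p. Rpn3, Rpn11, Rpn13, Prosbeta5, Prosbeta2 and the listed regulators cnc, maf-S, Hr51 and crc were also named for their function. The genes stv, Hsp68, bol, LysX and LysP were named after their values were seen. Deviations of same-numbered samples correlated at 0.39, 0.31 and 0.36 in midgut, which counts as paired, and at 0.20, 0.31 and -0.01 in whole flies, which does not. What same-numbered samples share is not stated. Alternatives were other scalings, a filter on the dimmest 40% of probe sets, trend and robust eBayes, array weights, a 2-fold threshold, a replicate block, other sets of arrays in the fit and leaving out each array. The median over the 26 standard subunits, and leaving out both midgut arrays numbered 1, were added after seeing the data.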

Additional observations from a re-analysis of the deposited data

Results flagged for a closer look

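Rpt4, an ATPase of the 19S cap, was singled out because its diet differences ran in opposite directions in the 2 tissues with no overlap between the arrays of either pair of groups. In whole flies it read 9.28, 9.33 and 9.34 on the unmodified diet and 9.24, 9.19 and 9.23 on glucose, a difference of -0.0962. In midguts the difference was 0.157. The test of the difference between them gave 0.25 (SE 0.11), with an unadjusted limma p of 0.0414 and an adjusted p of 0.31, so it did not pass.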

How the results depend on the processing

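Both tissue contrasts depend on the scaling between arrays, since whole fly and midgut arrays differ in their medians and how they were normalized is not given. Signals near the floor, as of the paralogs, are compressed. For the tissue contrasts, all 26 standard subunits were called with each array left out and with the replicate block, while median centring, quantile normalization and a 2-fold threshold lowered that number. No member was called for a diet in any alternative except Rpn5 in whole flies, where the fit over all 12 arrays called 1 member, a standard subunit.

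For whole flies, 584 probe sets were called for diet, against 119 at a 2-fold threshold, 1281 with array weights, 1711 with the replicate block, 1234 in the fit over 12 arrays and 0 to 1563 with 1 array left out, highest without the second glucose array. The median over the 40 members moved from -0.05 to -0.11 with quantile normalization, and lay between -0.07 and -0.03 with 1 array left out, as that of the standard subunits lay between -0.12 and -0.06. In midgut, where 1 probe set was called, the numbers were 10 with trend and robust eBayes, 24 with the replicate block, 6 in the fit over 12 arrays, 0 without both arrays numbered 1 and 0 with any 1 array left out. Medians with 1 array left out were 0.00 to 0.03 for the 40 members and 0.01 to 0.06 for the standard subunits. The replicate block changed no call of a member for either diet.

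For the difference between the diet effects, 8 probe sets were called, against 24 with centring, 21 with quantile normalization, 0 with the dimmest probe sets left out, 0 with trend and robust eBayes, 47 with array weights, 749 with the replicate block, 1 without both midgut arrays numbered 1, and 0 to 361 with 1 array left out. The member median was 0.13 with centring and 0.15 with quantile normalization, which gave 0.22 for the standard subunits. With 1 array left out these medians were 0.05 to 0.11 and 0.07 to 0.17.

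On the unmodified diet, the 2-fold threshold for midgut against whole fly left 15 members, all standard, and 5980 probe sets. Centring called 16043 probe sets and gave medians of -0.24 for the members and -0.41 for the standard subunits, and quantile normalization gave -0.59 and -0.80. The member median was -1.02 without the dimmest probe sets. On glucose the threshold left 3 members, all standard, and 5353 probe sets. Centring called 11 standard subunits and 15605 probe sets, with medians of -0.0085 and -0.21, and quantile normalization gave -0.38 and -0.64. The member median was -0.86 without the dimmest probe sets. With 1 array left out, 28 to 29 members and 9730 to 10450 probe sets were called on the unmodified diet, and 27 to 29 and 9236 to 9961 on glucose. Member medians were then -0.87 to -0.79 and -0.72 to -0.66, and those of the standard subunits -1.05 to -0.97 and -0.89 to -0.84.

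Centring reversed the sign of named genes on the unmodified diet, to 0.028 for Prosbeta7, 0.15 for Rpn7, 0.12 for Rpt3R, 0.52 for Prosalpha3T, 0.58 for Prosalpha4T1, Prosalpha4T2 and Prosbeta2R2, 0.47 for Prosbeta5R1, 0.45 for Rpn13R and 0.51 for Rpt4R. Quantile normalization gave 0.30 for Prosalpha4T2. On glucose centring gave 0.13 for Prosbeta7, 0.045 for Rpt4, 0.25 for Rpn13, 0.28 for Rpt3R, 0.52 for Prosalpha3T and Rpt4R, 0.49 for Prosalpha4T2, 0.61 for Prosalpha6T, 0.59 for Prosbeta2R2, 0.65 for Prosbeta4R2 and 0.62 for Rpn12R. Centring adds 1 constant per array, so these shifts follow from its construction. The cause of the other changes was not tested.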
